A study of Homo sapiens with 2 samples.

Results

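Small nucleolar RNA host lncRNAs are long non-coding transcripts whose introns carry small nucleolar RNAs (snoRNAs). The 10 described here are GAS5, ZFAS1, SNHG1, SNHG3, SNHG5, SNHG6, SNHG8, SNHG12, SNHG15 and SNHG16. They were picked by symbol, and no measured value entered the rule, though earlier results of these data were known. They make up 10 of the 44591 genes in the table. HSC-1, a line of cutaneous squamous cell carcinoma cells, received either a negative control siRNA, the siNC group, or siRNA that targets LINP1, the siLINP1 group. LINP1 is a lncRNA named for its part in non-homologous end joining. Cells of both groups were transfected at about 70% confluency, kept 6 h without serum and cultured a further 24 h with it before total RNA was taken, as the labels give it, while the methods of the study state another confluency and time. Both groups share the line, the medium and the transfection, and each group is 1 library from a transient knockdown. The comparison asks how the transcriptome of these cells differs once LINP1 is depleted. Because no group has a replicate, every interval below is a 95% interval that covers counting error only, no p-value was computed, and a difference between the 2 libraries cannot be told apart from a difference between 2 cultures.

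A host transcript is spliced, and the snoRNAs are trimmed out of the excised introns. Box C/D snoRNAs guide 2′-O-methylation of ribosomal RNA, and box H/ACA snoRNAs guide pseudouridylation. The exons left over hold only short open reading frames. Ribosomes that read them terminate early, and nonsense-mediated decay (NMD) then degrades many host transcripts, so that their steady level is known to depend on translation. Several hosts also begin with a 5′ terminal oligopyrimidine (TOP) tract, a C followed by a run of pyrimidines, which they share with ribosomal protein mRNAs and which links their translation to growth signals.

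SNHG12 and SNHG15 were the only host lncRNAs of the 10 that differed by more than 1.5-fold between the libraries, and both were higher in siLINP1. SNHG5, SNHG16, SNHG3, SNHG6 and SNHG1 had lower scaled counts in siLINP1, by less than that fold. As in any bulk sample, fewer cells with a transcript and less of it per cell cannot be told apart. ZFAS1, GAS5 and SNHG8 lay within 0.08 of no change on the log2 scale. The 10 hosts thus lay on both sides of no change. Ratios of reads between hosts, which no scaling can alter, come from the same counts and are no separate support.

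The 5′ ends are shown first, since the TOP tract is read from them. Each is 15 bases before and 15 bases from the first base that the count table gives for the gene, on GRCh37, 5′ to 3′. A C followed by at least 4 pyrimidines and lying within 5 bases of that start is in capitals. This tract was found for GAS5, SNHG5, SNHG6, SNHG8 and SNHG16. The windows of GAS5, SNHG5, SNHG8 and SNHG16 are as follows.
GAS5 (chr1:173837111-173837140, minus strand): ggcaccatactgtCTTTTCgaggtaggagt
SNHG5 (chr6:86388437-86388466, minus strand): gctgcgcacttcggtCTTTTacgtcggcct
SNHG8 (chr4:119199902-119199931, plus strand): aaggcctcggCCTTTCacattcgggaagcg
SNHG16 (chr17:74553831-74553860, plus strand): cgcaggggcggtctcgcgttCTTTTCgagg

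In the windows of ZFAS1, SNHG1, SNHG3, SNHG12 and SNHG15 no such tract lay that close to the start of the table. The windows of SNHG1, SNHG3, SNHG12 and SNHG15 are as follows.
SNHG1 (chr11:62623346-62623375, minus strand): tccccggggagattcgttctcatttttcta
SNHG3 (chr1:28832440-28832469, plus strand): cctcagtgagtttctgattctctaactgcg
SNHG12 (chr1:28908352-28908381, minus strand): tctccccgccgcattcccggtgtcgactta
SNHG15 (chr7:45026245-45026274, minus strand): ggtgcgcggcgcagcgcgcggcgtcagtct

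GENCODE lists several starts for each host. For ZFAS1, SNHG1, SNHG3 and SNHG12, GENCODE lists other starts at which the tract does occur, of which 1 window each is shown for SNHG1, SNHG3 and SNHG12, with the tract in capitals.
SNHG1 (chr11:62623295-62623324, minus strand): gtggtctttatagctgttaCTCTTTTgtac
SNHG3 (chr1:28832540-28832569, plus strand): tcgcgttttctCTCTCCTTTTTggagacag
SNHG12 (chr1:28908371-28908400, minus strand): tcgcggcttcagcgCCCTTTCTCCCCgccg
In SNHG15 a tract was found at the start of 0 of its 14 GENCODE transcripts. It was found in 13 of 19 for SNHG12 and in 78 of 91 for GAS5, the highest share. In the other hosts it was 1 of 3 (SNHG3), 12 of 80 (SNHG1), 19 of 89 (SNHG5), 7 of 14 (ZFAS1), 5 of 8 (SNHG6), 10 of 15 (SNHG8) and 10 of 18 (SNHG16). GENCODE starts were searched for the 10 hosts only, so these counts have no share over all genes beside them. A host with more listed starts also has more chances of a match. By the start of the table, 5 of the 10 hosts had the tract. The same search found it in 20.2% of the genes with at least 10 reads, in 21.1% of long non-coding genes with at least 100 reads, and in 41 of 79 ribosomal protein genes (51.9%). A match is a string of letters and says nothing on how the RNA is translated. No match at the start of the table does not show that a gene lacks the tract. Of the 5 hosts with the tract at the start of the table, SNHG5, SNHG6 and SNHG16 were lower in siLINP1, while the intervals of GAS5 and SNHG8 included no change.

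The library labelled siLINP1 held 23 LINP1 reads and the library labelled siNC held 167. On counts scaled by median-of-ratios size factors this was a log2 fold change of -2.65 (interval -3.35 to -2.02), in the direction of the labels. Counted reads numbered 18829544 in siNC and 15383081 in siLINP1. The line was checked against marker genes by RPKM, reads per kilobase of gene, scaled to the counted reads of the library. Of 12 squamous keratinocyte markers, 7 were under 1 RPKM in both libraries, among them KRT5, TP63 and CDH1. Of 8 mesenchymal markers, 2 (COL1A2 and THY1) were under 1 RPKM in both, and their medians were 5.74 and 6.04 RPKM, with VIM far above at 1519 in siNC and 1278 in siLINP1. The 12 squamous markers summed to 1963 reads in siNC and 1880 in siLINP1, but PERP alone gave 1158 and 1398 of them (log2 fold change 0.48), beside KRT14 at -1.27 (interval -1.64 to -0.91) and SFN at -0.73 (interval -1.03 to -0.42). The mesenchymal sum, 65254 and 44977 reads, was mostly VIM, with 61097 and 41992 (-0.33). Among the others, COL1A1 stood at -1.06, CDH2 at -0.56 and ZEB1 at 0.55. Endothelial and melanocyte markers (TYR at 0) had 3 of 3 and 3 of 4 members under 1 RPKM in both. The melanocyte marker above that level was MITF, at 6.46 RPKM in siNC and 7.75 in siLINP1. What part these markers had in the values of the host lncRNAs was not tested.

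Levels of different hosts were compared per length, in RPKM. GAS5, which accumulates in growth-arrested cells and can act as a decoy for the glucocorticoid receptor, had the highest level in both libraries. It stood at 1081 RPKM in siNC and 1166 in siLINP1 and supplied 35.2% and 36.9% of all reads on the 10 hosts. SNHG6 was next, with 483 and 416 RPKM. SNHG5, host of the U50 snoRNAs, and ZFAS1, transcribed from the start of ZNFX1 in the opposite direction, exchanged places. SNHG5 went from 361 RPKM in siNC to 279 in siLINP1, and ZFAS1 from 309 to 341, with counting intervals that did not overlap in either library. SNHG8 came next in both, at 134 and 150 RPKM.

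The lower part of the order changed more. In siNC it ran SNHG16 (86.8 RPKM), SNHG1 (68.7), SNHG12 (66.7), SNHG15 (43.98) and SNHG3 (27.0). In siLINP1 it ran SNHG12 (128), SNHG15 (105), SNHG16 (69.2), SNHG1 (63.4) and SNHG3 (22.6). SNHG12 thus passed SNHG16 and SNHG1, and so did SNHG15. Neighbours whose counting intervals overlapped were SNHG1 and SNHG12 in siNC (65.2 to 72.4 against 62.5 to 71.1 RPKM) and SNHG16 and SNHG1 in siLINP1 (66.6 to 71.9 against 59.7 to 67.3 RPKM). The spread between cultures, which these intervals leave out, is not known.

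**Figure D1:**
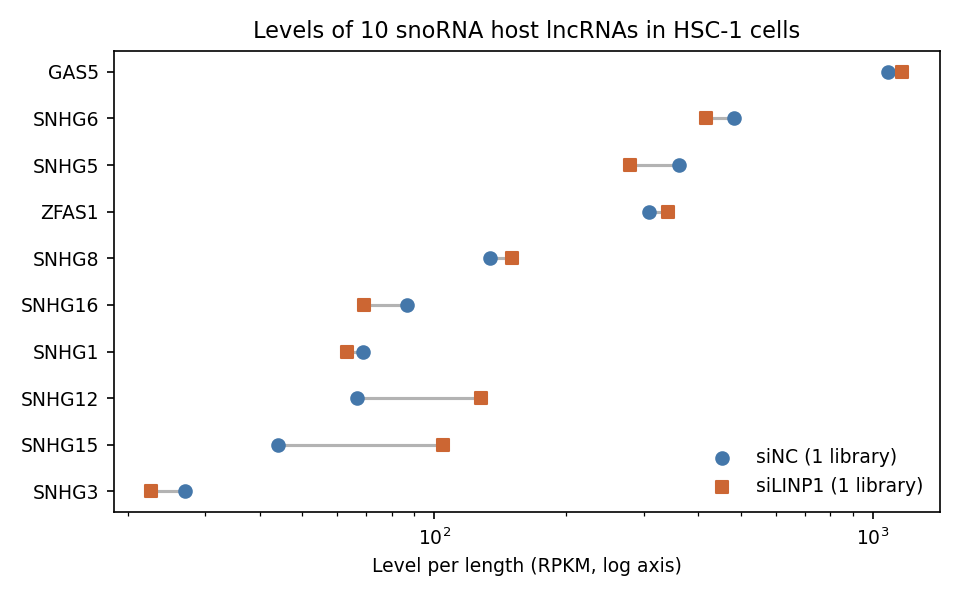
Level of each of the 10 host lncRNAs in RPKM (x axis, log scale) in the siNC and the siLINP1 library, 1 point per library with no replicate. GAS5 is highest in both libraries, and SNHG12 and SNHG15 are the hosts whose points lie furthest apart.

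SNHG15, host of the H/ACA snoRNA SNORA9, had 665 reads in siNC and 1296 in siLINP1. Scaled counts were 618 and 1394, a 2.25-fold higher value in siLINP1 (log2 fold change 1.17, interval 1.04 to 1.31). SNHG12, which carries 3 H/ACA snoRNAs and 1 C/D snoRNA, had 928 and 1452 reads. Its scaled counts were 863 and 1561, a 1.81-fold higher value (log2 fold change 0.86, interval 0.74 to 0.98). These hosts were the least and the third least read of the 10 in summed reads over both libraries, and both intervals lay wholly above 1.5-fold. RPKM divides by the total of the library and so widens these differences, to 43.98 against 105 RPKM for SNHG15.

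Among the 7071 genes with at least 1000 reads, a depth that all 10 hosts exceeded, 5.47% were higher in siLINP1 by over 1.5-fold and 3.56% were lower, against 2 and 0 of the 10 hosts. Scaled to total counts instead, 527 of these genes were higher and 142 lower, in place of 387 and 252, and the hosts stayed at 2 and 0. Among the 19840 genes with at least 10 reads the shares were 14.4% higher and 13% lower. Among 1143 long non-coding genes with at least 100 reads they were 12.1% and 7.44%, or 138 and 85 genes, which became 171 and 66 by total counts. Of the 7071 genes, 3.55% had their entire interval past 1.5-fold on the higher side and 1.58% on the lower side. SNHG12 and SNHG15 met this criterion. A more than 2-fold higher value was seen in 1.4% of the 7071 genes and in SNHG15 among the hosts. The log2 fold change of SNHG15 exceeded that of 99.1% of these genes and that of SNHG12 exceeded 97.8%.

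**Figure D2:**
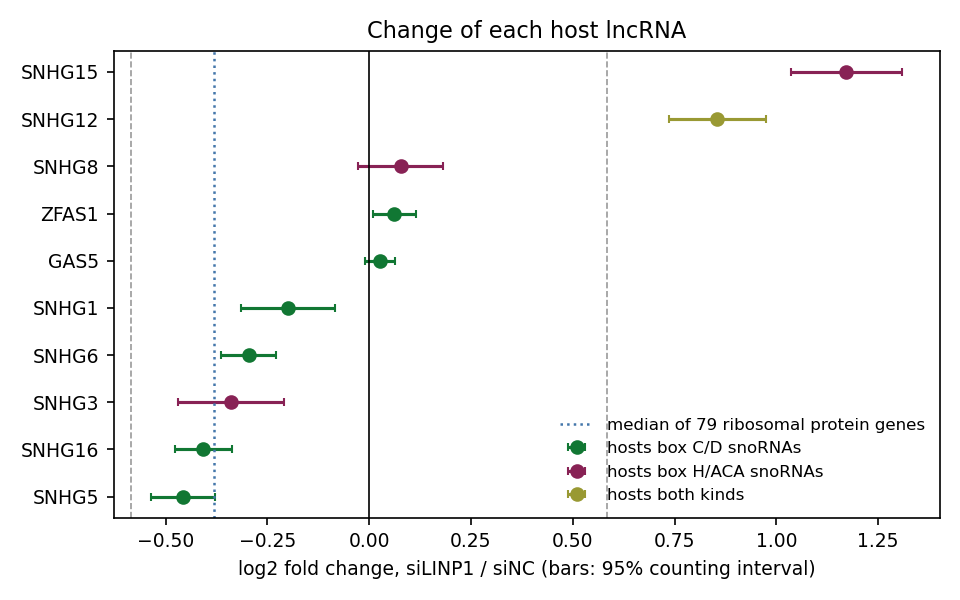
Log2 fold change (siLINP1 over siNC, x axis) of each host lncRNA, with bars for the 95% counting interval, dashed lines at 1.5-fold and a dotted line at the median of 79 ribosomal protein genes. Colours mark the kind of snoRNA hosted. SNHG15 and SNHG12 lie wholly beyond the upper line, and no host reaches the lower line.

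SNHG5 had 3450 reads in siNC and 2173 in siLINP1, which gave scaled counts of 3208 and 2337. Its log2 fold change was -0.46 (interval -0.54 to -0.38), the lowest of the 10. SNHG16, a host of SNORD1 snoRNAs that is often raised in tumours, had 4146 and 2703 reads and a log2 fold change of -0.41 (interval -0.48 to -0.34). SNHG3, host of the U17 snoRNAs SNORA73A and SNORA73B that act in the cleavage of pre-ribosomal RNA, had 1193 and 816 reads and a log2 fold change of -0.34 (interval -0.47 to -0.21). SNHG6 had 4289 and 3021 reads and a log2 fold change of -0.30 (interval -0.36 to -0.23). SNHG1, the U22 host gene, an early example of a gene whose introns are conserved as snoRNAs while its exons are not, had 1447 and 1090 reads and a log2 fold change of -0.20 (interval -0.31 to -0.085). These 5 hosts were lower by 12.9 to 27.2 percent of the siNC value. SNHG5 was the lowest placed of them, above 8.49% of the genes with at least 1000 reads, followed by SNHG16, above 11.6%.

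The other 3 hosts differed least. GAS5 had 12869 and 11335 reads, scaled counts of 11968 and 12188 and a log2 fold change of 0.03 (interval -0.01 to 0.06). ZFAS1 had 5992 and 5409 reads and a log2 fold change of 0.06 (interval 0.0085 to 0.12). SNHG8 had 1565 and 1428 reads and a log2 fold change of 0.08 (interval -0.03 to 0.18). GAS5 and ZFAS1 had the most reads of the 10, so their intervals were among the narrowest.

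Counting intervals lay above 0 for 3 hosts (ZFAS1, SNHG12 and SNHG15) and below 0 for 5. In the genes with at least 1000 reads 31.7% of intervals lay above 0 and 40.7% below, numbers of 2245 and 2875 genes that turned to 2895 and 2187 when total counts were the scale. The hosts summed to 36544 reads in siNC and 30723 in siLINP1, which is 0.194% and 0.200% of the library. On scaled counts the sum had a log2 fold change of -0.04 (interval -0.063 to -0.019), which turned to 0.04 (interval 0.019 to 0.063) by total counts, so the sum has no direction that holds across scalings. Without SNHG12 and SNHG15 it was -0.11. The median over the 10 was -0.09, against -0.04 over the genes with at least 1000 reads and -0.02 over all genes kept. Each library's sum is dominated by GAS5, SNHG6, ZFAS1, SNHG16 and SNHG5, so that it hides the difference between hosts.

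**Figure D3:**
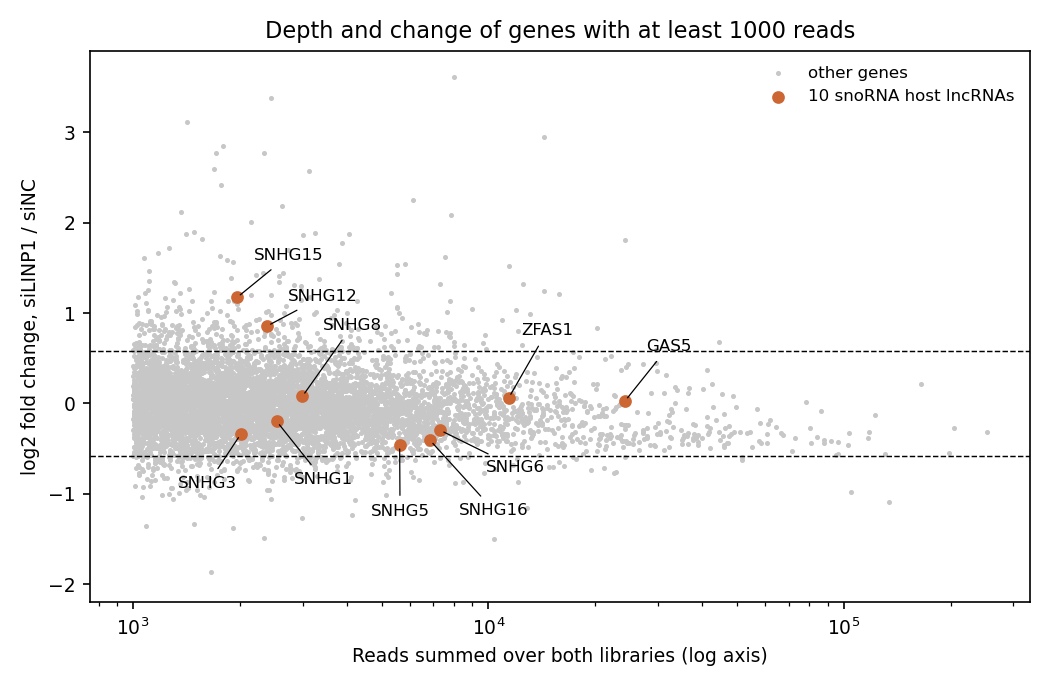
Log2 fold change (siLINP1 over siNC, y axis) against reads summed over both libraries (x axis, log scale) for the genes with at least 1000 reads, the 10 host lncRNAs in orange and dashed lines at 1.5-fold. SNHG12 and SNHG15 lie above the upper line among genes read at a like depth, and the other 8 lie between the lines.

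Ratios between hosts within a library do not depend on the scaling. They use the same counts as the fold changes, so hosts far apart in fold change also differ in ratio. There were 0.778 reads of SNHG12 per read of SNHG3 in siNC and 1.78 in siLINP1, a 2.29-fold higher ratio (interval 2.02 to 2.59). Both genes lie on chromosome 1 with 67645 bases between them. The ratio of SNHG15 to GAS5 was 2.21-fold higher in siLINP1 (interval 2.01 to 2.44), and that of SNHG12 to GAS5 was 1.78-fold higher (interval 1.63 to 1.94). SNHG15 also stood apart from SNHG12, by a ratio 1.25-fold higher (interval 1.10 to 1.41). Against GAS5 the ratio of SNHG5 was 0.715 of its siNC value (interval 0.674 to 0.759), that of SNHG16 was 0.740 (interval 0.701 to 0.782) and that of SNHG6 was 0.800 (interval 0.758 to 0.843). The widest of the 15 ratios taken was SNHG15 to SNHG5, 3.09-fold higher in siLINP1 (interval 2.77 to 3.45).

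Some pairs were not separated at this depth. The change in ratio was 1.02 for ZFAS1 to GAS5 (interval 0.980 to 1.07), 1.04 for SNHG8 to GAS5 (interval 0.959 to 1.12), and 1.04 for SNHG16 to SNHG5 (interval 0.962 to 1.11). For SNHG3 to SNHG16 it was 1.05 (interval 0.947 to 1.16). By the kind of snoRNA carried, the 6 hosts of C/D snoRNAs alone had a median log2 fold change of -0.25 and ran from -0.46 to 0.06, while the 3 hosts of H/ACA snoRNAs alone ran from -0.34 (SNHG3) to 1.17 (SNHG15). The 2 kinds overlapped.

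The snoRNAs themselves were read far less than their hosts. The 35 snoRNAs of the 10 hosts, 43 to 207 bases long and all inside the span of their host, had 497 reads in siNC and 398 in siLINP1 together, a log2 fold change of -0.11 (interval -0.30 to 0.08). SNORD80, carried by GAS5, was the most read, with 115 and 100 reads and a log2 fold change of 0.01 (interval -0.39 to 0.41). Its sequence shows what a host intron holds, with the C box TGATGA and the D box CTGA, the motifs that bind the shared C/D proteins, in capitals.
SNORD80 (chr1:173833971-173834041, minus strand): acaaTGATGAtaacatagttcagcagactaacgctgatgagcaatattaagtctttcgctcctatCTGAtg

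The 4 snoRNAs in SNHG12 had 77 reads in siNC and 51 in siLINP1, a log2 fold change of -0.38 (interval -0.92 to 0.14) beside 0.86 for the host. The interval of the snoRNAs ended below that of the host. In the transcript model used, 3 of these 4 snoRNAs lie in introns, so reads on the other may also come from a host exon. SNORA9 in SNHG15 had 9 reads in each library, which leaves its log2 fold change between -1.30 and 1.72. For GAS5 the 10 snoRNAs had 214 and 187 reads and a log2 fold change of 0.01 (interval -0.28 to 0.30). Reads placed on a snoRNA in a library of this kind can come from the mature snoRNA, from the intron or from a retained-intron transcript, and the table does not separate them.

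Several hosts share their start with a protein-coding gene. ZNFX1, which encodes a zinc finger helicase, overlaps ZFAS1 by 42 bases and starts 41 bases from it on the other strand. It had 2181 reads in siNC and 3290 in siLINP1, a log2 fold change of 0.80 (interval 0.72 to 0.88), and ZFAS1 stood 0.74 below it on the log2 scale (difference -0.74, interval -0.84 to -0.65). SLC3A2, the heavy chain of amino acid transporters, starts 124 bases from SNHG1 in the opposite direction. It had 9865 and 12262 reads and a log2 fold change of 0.52 (interval 0.48 to 0.56), and the difference of SNHG1 from it was -0.72 (interval -0.84 to -0.60). Both hosts thus lay below the gene that starts beside them. ZBTB37, a zinc finger gene 95 bases from the start of GAS5, had 79 and 96 reads and a log2 fold change of 0.49 (interval 0.05 to 0.94). GAS5 also lay below it, by a difference of -0.46 (interval -0.91 to -0.018).

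The neighbours of SNHG3, SNHG8 and SNHG12 each lay below their host. RCC1, the exchange factor of the GTPase RAN, shares its first base and strand with SNHG3 and spans it. RCC1 had 2815 and 1673 reads and a log2 fold change of -0.54 (interval -0.63 to -0.45), from which SNHG3 differed by 0.20 (interval 0.045 to 0.36). How reads on exons common to RCC1 and SNHG3 were assigned depends on the counting mode, so their values are uncertain. PRSS12, a protease gene 214 bases past the end of SNHG8, had 549 and 351 reads and a log2 fold change of -0.44 (interval -0.63 to -0.24). TRNAU1AP, which acts in selenocysteine insertion, overlaps the 3′ end of SNHG12 by 8 bases. It had 386 and 318 reads and a log2 fold change of -0.07 (interval -0.29 to 0.15), 0.93 below that of SNHG12 (interval 0.68 to 1.18). No other gene within 5 kb of the hosts had 100 reads, hosted snoRNAs and tRNA genes aside. Whether counting used the strand of the reads is not given in the sources used here, so reads in the overlaps of ZFAS1 and SNHG12 cannot be told apart from those of their neighbours.

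**Figure D4:**
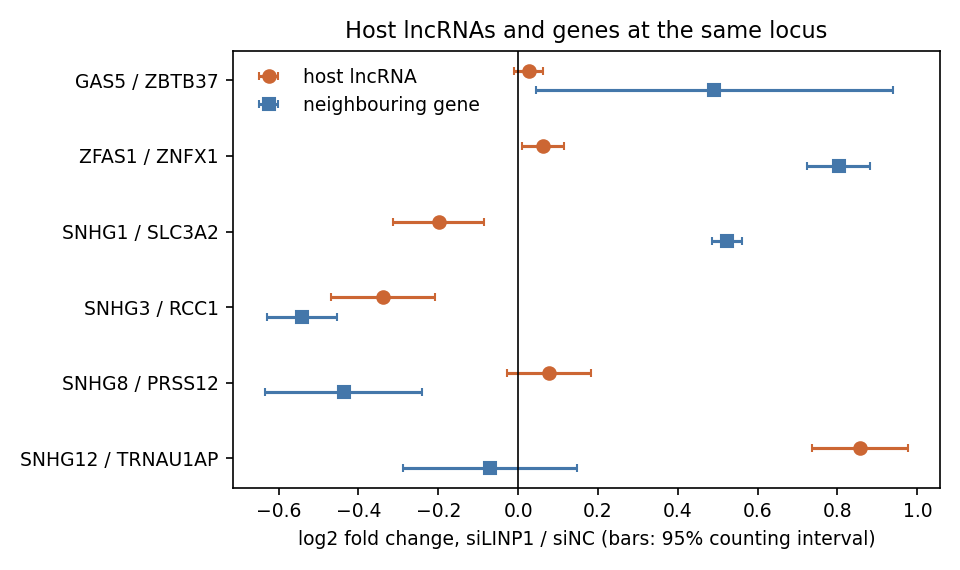
Log2 fold change (siLINP1 over siNC, x axis) of host lncRNAs and of the genes with at least 100 reads that overlap them or lie within 5 kb, with bars for the 95% counting interval. ZNFX1 and SLC3A2 lie to the right of ZFAS1 and SNHG1, and TRNAU1AP to the left of SNHG12.

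The promoters of the 2 hosts that differed by over 1.5-fold are shown as 250 bases before and 50 from the start that the table gives, read from GRCh37. The cAMP response element TGACGTCA, its own reverse complement, is in capitals.
SNHG15 (chr7:45026210-45026509, minus strand): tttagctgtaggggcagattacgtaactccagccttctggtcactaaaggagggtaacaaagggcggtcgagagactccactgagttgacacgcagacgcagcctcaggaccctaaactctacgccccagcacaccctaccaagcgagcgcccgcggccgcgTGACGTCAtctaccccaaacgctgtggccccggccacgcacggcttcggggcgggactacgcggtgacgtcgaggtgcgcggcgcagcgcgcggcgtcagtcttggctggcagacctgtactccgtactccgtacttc
SNHG12 (chr1:28908317-28908616, minus strand): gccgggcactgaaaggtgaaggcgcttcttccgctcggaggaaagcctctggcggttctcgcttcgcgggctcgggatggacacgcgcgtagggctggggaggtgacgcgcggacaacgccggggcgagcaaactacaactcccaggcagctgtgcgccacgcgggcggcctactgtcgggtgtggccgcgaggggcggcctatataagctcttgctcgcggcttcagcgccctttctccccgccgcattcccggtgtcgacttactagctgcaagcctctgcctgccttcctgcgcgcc

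In SNHG15 the element began 88 bases before the start, and in GAS5 it began 52 bases before. It was found in 2 of the 10 windows, in 2.46% of those of the genes with at least 10 reads and in 3.28% at 1000 reads or more. SNHG12 held no match. The E-box CACGTG, a palindrome bound by MYC and related factors, was found in GAS5 alone, 206 bases before the start, and in 10.4% of windows of genes with at least 1000 reads. Neither TGATGCAA nor TGANTCA, searched on both strands as the letters of the ATF4-C/EBP and AP-1 sites, was found in any of the 10. GAS5 and SNHG15 both held the element and had log2 fold changes of 0.03 and 1.17.

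The transcripts were described from the GENCODE model nearest to each gene's span. They had from 2 exons (SNHG8) to 12 (GAS5). Their longest open reading frames from an ATG ran from 30 codons in SNHG6 to 117 in ZFAS1, with 52 in SNHG12 and 50 in SNHG15. A stop codon more than 50 bases before an exon junction is the classical mark of an NMD target. Counted from the first ATG of the model, such junctions numbered 5 in GAS5 and SNHG1, 4 in ZFAS1, 3 in SNHG12, 2 in SNHG5, SNHG6 and SNHG16, 1 in SNHG8 and SNHG15, and 0 in SNHG3. In SNHG15 that first frame has 12 codons and starts at base 242. Counted from the stop of the longest frame, the junctions were 4 in ZFAS1, 3 in SNHG1, 1 in SNHG6, SNHG8 and SNHG15, and 0 in GAS5, SNHG3, SNHG5, SNHG12 and SNHG16. Which frame is translated is not known from these data, so the count depends on the frame chosen. SNHG12 and SNHG15 lay within the range of the other hosts in their numbers of exons, junctions and codons of the longest frame. The first frame of SNHG15 was outside that range, since it started furthest from the 5′ end and was the shortest.

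Lists of related genes were set beside the hosts and are described by counts and medians. Over all genes with at least 10 reads, 14.4% were higher by over 1.5-fold and 13% lower. At 1000 reads or more the shares were 5.47% and 3.56%. The counts in the lists below stand beside these shares. Of 25 symbols of other snoRNA host lncRNAs, some of them old and new names of the same gene, 18 were in the table. Of these, 14 had at least 10 reads. Their median log2 fold change was -0.12, with 1 higher and 1 lower by over 1.5-fold. SNHG11 had 342 and 450 reads (0.61, interval 0.40 to 0.81), and SNHG9 had 83 and 34 reads (-1.08, interval -1.70 to -0.49). SNHG17, with 2244 and 2623 reads, stood at 0.43 (interval 0.35 to 0.52). SNHG7 stood at -0.42, SNHG19 at -0.35, the most read of them, LRRC75A-AS1, at -0.22, and C6orf48, which the table types as protein-coding, at 0.07. The 14 thus ranged on both sides of 0, as the 10 did.

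The 25 protein-coding snoRNA hosts had a median of -0.02, which became 0.06 when scaled to total counts. TAF1D, a subunit of the RNA polymerase I selectivity factor, was the only member past 1.5-fold, with 1645 and 2199 reads (0.63, interval 0.53 to 0.72). NOP56, a core C/D snoRNP protein, stood at 0.45 and WDR43, a ribosome biogenesis factor, at 0.36. HSPA8, a chaperone, stood at -0.38, TPT1 at -0.25, RACK1 of the small ribosomal subunit at -0.22 and the elongation factor EEF2 at -0.19.

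Ribosomal protein mRNAs share the TOP start with some of the hosts. All 79 of those kept had a log2 fold change whose interval lay below 0, from -0.76 to -0.19 with a median of -0.38, and the direction held under every scaling tried. They took 8.48% of reads in siNC and 6.87% in siLINP1. Examples are RPS24 at -0.76, RPL35A at -0.68 and RPS28 at -0.65, the 3 past 1.5-fold, of which RPS28 fell short by total counts (-0.57), while the most read were RPL13A at -0.39, RPS2 at -0.56 and RPLP0 at -0.43. The ribosomal protein genes summed had a log2 fold change of -0.39. Set against this sum, 7 of the 10 hosts were higher with an interval clear of 0, from 0.09 for SNHG6 to 1.56 for SNHG15. Most genes with at least 1000 reads also lay above the sum. SNHG16 (-0.41) and SNHG3 (-0.34), on either side of it, exceeded 11.6% and 16.6% of these genes. The intervals of SNHG3, SNHG5 and SNHG16 against that sum included 0. GAS5 stood 0.41 above it (interval 0.38 to 0.45).

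The 24 NMD and exon junction factors had a median of 0.02, with 0 past 1.5-fold in either direction, or 1 by total counts (PNRC2, 0.60). UPF1, the central NMD helicase, had 6664 and 4565 reads (-0.34, interval -0.39 to -0.28), and the exon junction proteins MAGOH and EIF4A3 stood at -0.45 and -0.32. PNRC2, XRN1, CASC3 and SMG1 stood at 0.52, 0.49, 0.46 and 0.36, and SMG5 at 0.03. Of 15 transcripts known as NMD targets (14 mRNAs and the pseudogene transcript RP9P), 5 were higher by over 1.5-fold and 0 lower, with a median of 0.22. These were ATF3 (1197 and 4929 reads, 2.25), DDIT3 (1965 and 3558 reads, 1.07), GADD45B (0.85), GADD45A (0.67) and UPP1 (0.79), the last named after its value was seen. ATF3, DDIT3 and the GADD45 genes are also stress-induced transcripts. The list was chosen with earlier results of these data known, so its count is no separate support. Among genes with at least 1000 reads, 5.47% were higher by over 1.5-fold. Other members of this list were ATF4 at 0.21, SRSF3 at 0.22 and ARHGEF18 at -0.10.

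Of 22 snoRNP assembly genes, 2 were higher and 1 lower by over 1.5-fold, with a median of 0.09. Among genes with at least 1000 reads, 5.47% were higher and 3.56% lower by that fold. NOLC1, a nucleolar chaperone of snoRNPs, had 1654 and 3866 reads (1.43, interval 1.35 to 1.52). NAF1, an H/ACA assembly factor, stood at 0.60, and FBL, the methyltransferase of C/D snoRNPs, had 3756 and 2159 reads (-0.59, interval -0.67 to -0.51). The call on FBL held under the median-of-ratios scaling alone, and its value was -0.57 by TMM, -0.56 by protein-coding size factors and -0.51 by total counts. NHP2, PIH1D1 and RUVBL2 stood at -0.26, -0.20 and -0.08, and TCOF1 at 0.16. Of long non-coding genes with at least 100 reads, 12.1% were higher by over 1.5-fold and 7.44% lower. Among 19 other well-known lncRNAs, 3 were higher by over 1.5-fold and 0 lower, with a median of 0.22. These were PVT1 (446 and 699 reads, 0.86), JPX (0.87) and CYTOR (0.74). The other 3 scalings added OIP5-AS1, named after its value was seen, which stood at 0.57 here and at 0.59 to 0.65 under them. MALAT1 and NEAT1, both kept in the nucleus, stood at -0.46 and -0.41, and NORAD, in the cytoplasm, at 0.23.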

How the data were processed

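RNA of HSC-1 cells was sequenced by the authors on an Illumina HiSeq instrument, with 1 siNC and 1 siLINP1 library. By the methods of the study, the authors used TopHat2 for alignment to GRCh37/hg19 and HTSeq for counting, and the submitters' processing notes also name HISAT, HISAT2 and Bowtie2. The versions, annotation, counting mode and strand setting are not given in the sources used here. The deposited values are raw read counts per gene, and the deposited RPKM values equal the count divided by gene length and library total. The table's 12 other columns of per-sample values were not used.

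Depth was 18829544 and 15383081 reads, and a count of 3 reads was taken as the floor that 0 allows. Size factors by the median of ratios were 1.08 and 0.930, computed with Python 3.11.15, numpy 2.4.6 and pandas 2.3.3. Genes with fewer than 10 summed reads were left out, and no pseudocount was added. The 95% interval is the Clopper-Pearson interval of a gene's share of reads in siLINP1 (scipy 1.17.1), turned into a fold; ratios between hosts have the exact conditional interval. A difference of more than 1.5-fold was counted, without a test. No molecular identifiers are described, so intervals cover counting error only. The script was tested on simulated data.

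The members and all gene lists were chosen with earlier results of these data known. Besides the hosts and LINP1, the genes named were neighbours with at least 100 reads and, per list, the 3 with most reads and up to 3 with the largest higher and lower values by the interval end nearer 0, among those with at least 100 reads and an interval clear of 0. Transcript models came from GENCODE on GRCh37, and sequences from that genome. Some single results are not reported here. Alternatives were total-count scaling, TMM (edgeR 4.0.16), size factors from protein-coding genes, pseudocounts of 1 and 5, and minimums of 1 and 100 reads.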

Additional observations from a re-analysis of the deposited data

How the results depend on the processing

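With 1 library per group no replicate could be left out. No paired analysis was possible because each group has 1 library and no test was run. SNHG12 and SNHG15 stayed the 2 hosts past 1.5-fold, and no host was lower by that fold, under total counts, TMM, size factors from protein-coding genes and both pseudocounts. The sum of the 10 hosts, an alternative chosen after seeing the data, reversed from -0.041 to 0.041 by total counts and became -0.017 by TMM and -0.0093 by protein-coding size factors. By total counts the sign also turned for the protein-coding host median (-0.02 to 0.06) and for TRNAU1AP (-0.07 to 0.01), whose interval included 0, and the balance of intervals among the genes with at least 1000 reads turned too. Calls that differed with the scaling in the lists were those of RPS28, PNRC2, FBL and OIP5-AS1. Total-count scaling raised every log2 fold change by 0.08, TMM by 0.02 and protein-coding size factors by 0.03. By total counts the values became 0.11 for GAS5, 0.14 for ZFAS1, -0.38 for SNHG5, -0.21 for SNHG6 and -0.33 for SNHG16, and SLC3A2 reached 0.61, past 1.5-fold. The ribosomal protein median became -0.30 by total counts, -0.36 by TMM and -0.35 by protein-coding size factors. The intervals of 3 hosts lay above 0; total counts and protein-coding size factors made this 5 and TMM 4, while 5 lay below 0 in each. The count of genes past 1.5-fold, 2863 higher and 2573 lower, became 7048 and 6456 when 1 read sufficed and 1163 and 903 at 100 reads, since other genes were tested. Depth limits the snoRNAs most: 12 of 35 had under 10 reads.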
